A study of Mus musculus with 6 samples.

Results

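The fast and modulatory transmitter receptors measured here were the subunits of ion channels opened by glutamate, GABA, glycine, acetylcholine, serotonin or ATP, together with the metabotropic glutamate receptors. Members were all probe sets whose platform annotation gave exactly 1 gene symbol that names a receptor subunit of the Gria, Grik, Grid, Grin, Gabr, Glra, Glrb, Chrn, Htr3 or P2rx series, or a numbered Grm receptor. This gave 48 of 12422 probe sets and 38 of 8251 genes, in 10 families. By gene there were 4 AMPA, 4 NMDA, 3 kainate and 1 delta glutamate receptor subunits, 1 metabotropic glutamate receptor, 10 GABA-A, 2 glycine, 8 nicotinic and 1 serotonin type 3 subunits, and 4 P2X receptors for ATP. RNA came from the striatum of 6 female C57BL/6 mice aged 12 months, 1 array per mouse. The 3 Hdh4/Q80 mice, called transgenic in the labels, model Huntington's disease through a lengthened CAG tract in the endogenous huntingtin gene (Hdh). Whether 1 or both alleles carried it was not given in the sources used here. The 3 controls were wild-type littermates. Each value is a log2 expression level from robust multi-array average (RMA) summarisation, and a difference is Hdh4/Q80 minus wild type on that log2 scale.

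Spiny projection neurons, which make up most of the striatum, receive glutamate from cortex and thalamus and GABA from interneurons and from each other. AMPA receptors, built from Gria subunits, carry most fast glutamate current, and NMDA receptors, built from an obligatory subunit with Grin2 partners, admit calcium when glutamate and depolarisation coincide. GABA-A, glycine, nicotinic and serotonin type 3 subunits belong to the Cys-loop family, in which subunits assemble as a ring around 1 pore. Striatal RNA is a mixture of cells, so fewer cells of a type and less RNA per cell cannot be told apart.

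Array medians lay between 7.10 and 7.13. The array of Hdh4/Q80 replicate 8 differed most from the rest. Its average correlation was 0.992, where the others reached 0.995 to 0.997, and its values had the narrowest spread over probe sets (SD 1.74, against 1.77 to 1.81). Of the 12 striatal projection neuron markers listed, 7 were measured, Penk, Tac1, Pdyn and Drd2 among them. Differences of the 7 ran from -0.21 (Ptpn5) to 0.11 (Rgs9), with a median of 0.02. Of the subunits listed for description, 15 of 24 were measured, and the others were not analysed here.

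No receptor transcript differed between genotypes past the test's threshold. With limma's moderated test and Benjamini-Hochberg adjustment over all probe sets, 0 of 48 receptor probe sets reached an adjusted p under 0.05, as did 0 of all 12422 (0%), and the smallest adjusted p among the receptors was 0.857. On the brightest probe set of each gene, 18 receptor genes lay below 0 and 20 above, with a median of 0.02, against a median of -0.0072 and 53.3% below 0 over all genes. At an unadjusted p under 0.05 there was 1 receptor gene lower in the mutants, Gria3, and 1 higher, Htr3a. Over all genes 2.13% were lower and 2.17% higher by that rule (4.3% in all, and 5.1% of all probe sets), so the receptor counts were near the background. For 37 of 38 receptor genes the 95% interval lay wholly within 1.5-fold of no difference, as it did for 8176 of all 8251 genes; Grin2b was the exception. RMA tends to understate fold changes of dim probe sets, and both group means of 5 of the 38 genes lay below the lower quartile of every array; such genes are called dim here.

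**Figure D1:**
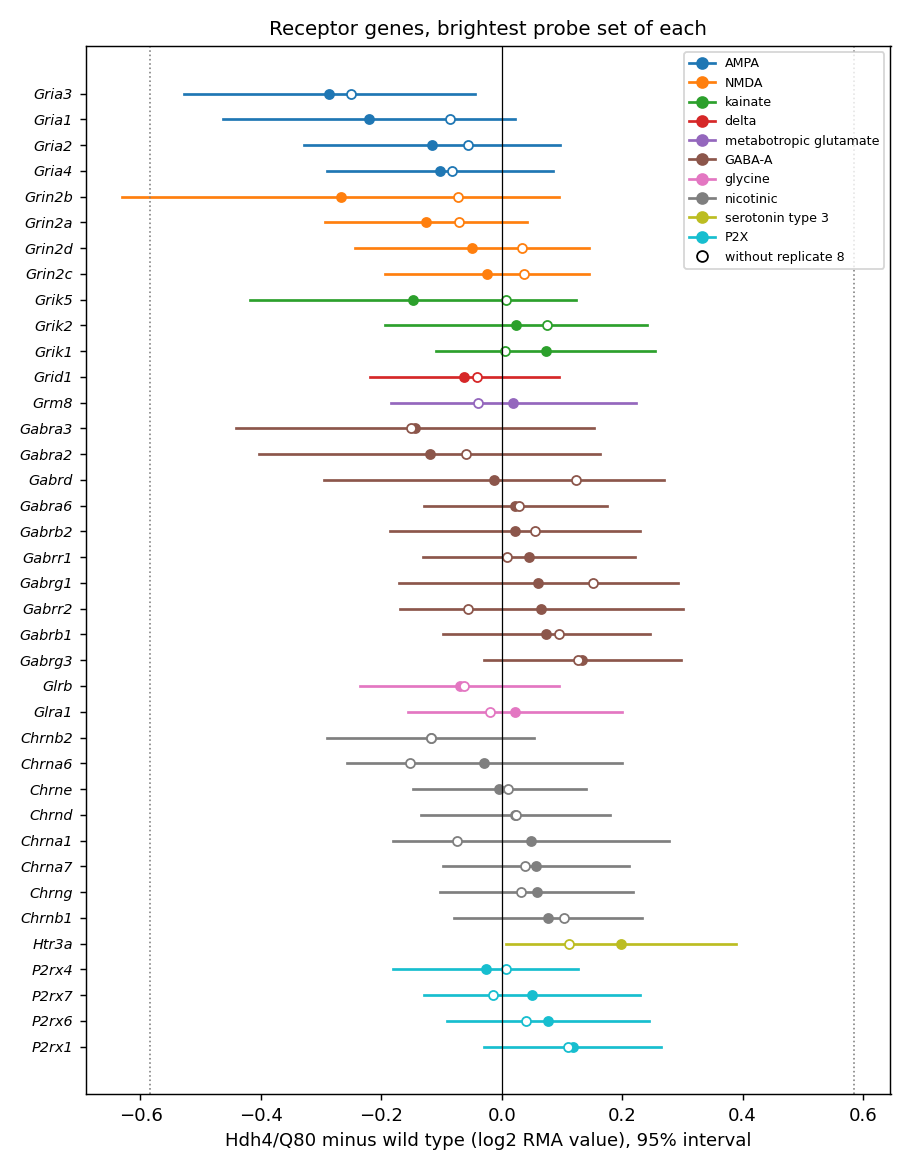
Difference between Hdh4/Q80 and wild-type striatum for the 38 receptor genes, brightest probe set of each, in log2 units on the horizontal axis; filled points are the difference over all 6 mice, lines limma's 95% interval, open points the difference without Hdh4/Q80 replicate 8, and dotted lines a 1.5-fold change. The AMPA and NMDA genes lie left of 0 with all mice, with intervals that include 0 for all of them but Gria3, and the open points of the 10 ionotropic glutamate genes below 0 all lie to the right of the filled ones.

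The lowest receptor differences were those of glutamate receptor subunits. All 4 AMPA genes lay below 0 (median -0.17), as did all 4 NMDA genes (median -0.09). Without Hdh4/Q80 replicate 8 the AMPA median was -0.0844, with 4 of 4 below 0, and the NMDA median -0.019, with 2 of 4 below 0. Array weights estimated from the fit were 6.19 for Hdh4/Q80 replicate 7, 0.228 for replicate 8 and 0.405 for replicate 9. The weighted mutant mean therefore lay close to replicate 7. With these weights 1 of 4 NMDA genes lay below 0 and their median was 0.0158. For AMPA genes the count was 3 of 4 and the median -0.0618. Counting kainate and delta subunits, 10 of 12 ionotropic glutamate receptor genes lay below 0, with a median of -0.11; among the remaining 26 receptor genes 8 did, with a median of 0.03. Without Hdh4/Q80 replicate 8 the glutamate count was 7 of 12 and the median -0.05, and with array weights it was 6 of 12, with a median of -0.0156. None of these genes passed the adjusted test, and the contrast between receptor classes was not tested.

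Gria3, an AMPA subunit gene on the X chromosome, read 7.37, 7.23 and 7.35 in wild-type replicates 4, 5 and 6. The Hdh4/Q80 mice read 7.29, 6.96 and 6.85 in replicates 7, 8 and 9. Replicate 7 lay among the wild types and the other 2 mutants below all of them, so the groups overlapped. The difference was -0.29 ± 0.108 (SE, n = 3 mice per group; 95% interval -0.53 to -0.04), with an unadjusted p = 0.025 and an adjusted p = 0.857 in limma's test. Without replicate 8 it was -0.25, without replicate 9 -0.20 and without replicate 7 -0.41, where it still did not pass (adjusted p = 0.362).

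Gria1, the gene of the GluA1 subunit that is regulated in synaptic plasticity, was measured by 2 probe sets. On the brighter, values were 10.04, 10.04 and 10.06 in wild type and 10.02, 9.56 and 9.90 in Hdh4/Q80 mice. All 3 mutants lay below the wild types, replicate 7 by little and replicate 8 by most. Its difference of -0.22 ± 0.109 (SE; interval -0.46 to 0.02) became -0.09 without replicate 8. The second probe set read 9.06, 9.03 and 9.05 against 9.26, 8.92 and 8.95, with the mutants on both sides of the wild types and a difference of -0.002 (interval -0.21 to 0.21); this sign turned under quantile (0.04) and cyclic loess normalization (0.03). The probe sets of Gria1 gave unlike differences, while both placed replicate 8 lowest of the 6 mice.

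Gria2 encodes the subunit that makes AMPA receptors nearly impermeable to calcium, and 4 probe sets named it. The brightest read 11.52, 11.28 and 11.34 in wild type and 11.21, 11.14 and 11.43 in mutants, overlapping groups with a difference of -0.12 (interval -0.33 to 0.10). It was -0.06 without replicate 8 and -0.05 after quantile normalization. A dimmer one, at 8.04 in wild type with an _f suffix in its name, differed by -0.11, and by -0.04 without replicate 8. The dimmest, at 2.96 with an _r suffix, differed by -0.09. The second brightest had the opposite sign (0.17 ± 0.173, SE): replicate 8 read 8.62 against 7.96 and 8.06 in the other mutants, and wild-type replicate 4 was also high (8.33, against 7.88 and 7.90). Without replicate 8 its difference was -0.03. Gria4, a subunit with fast gating, was dim: wild types averaged 5.59 ± 0.0531 and mutants 5.48 ± 0.141 (mean ± SD, n = 3), a difference of -0.10.

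**Figure D2:**
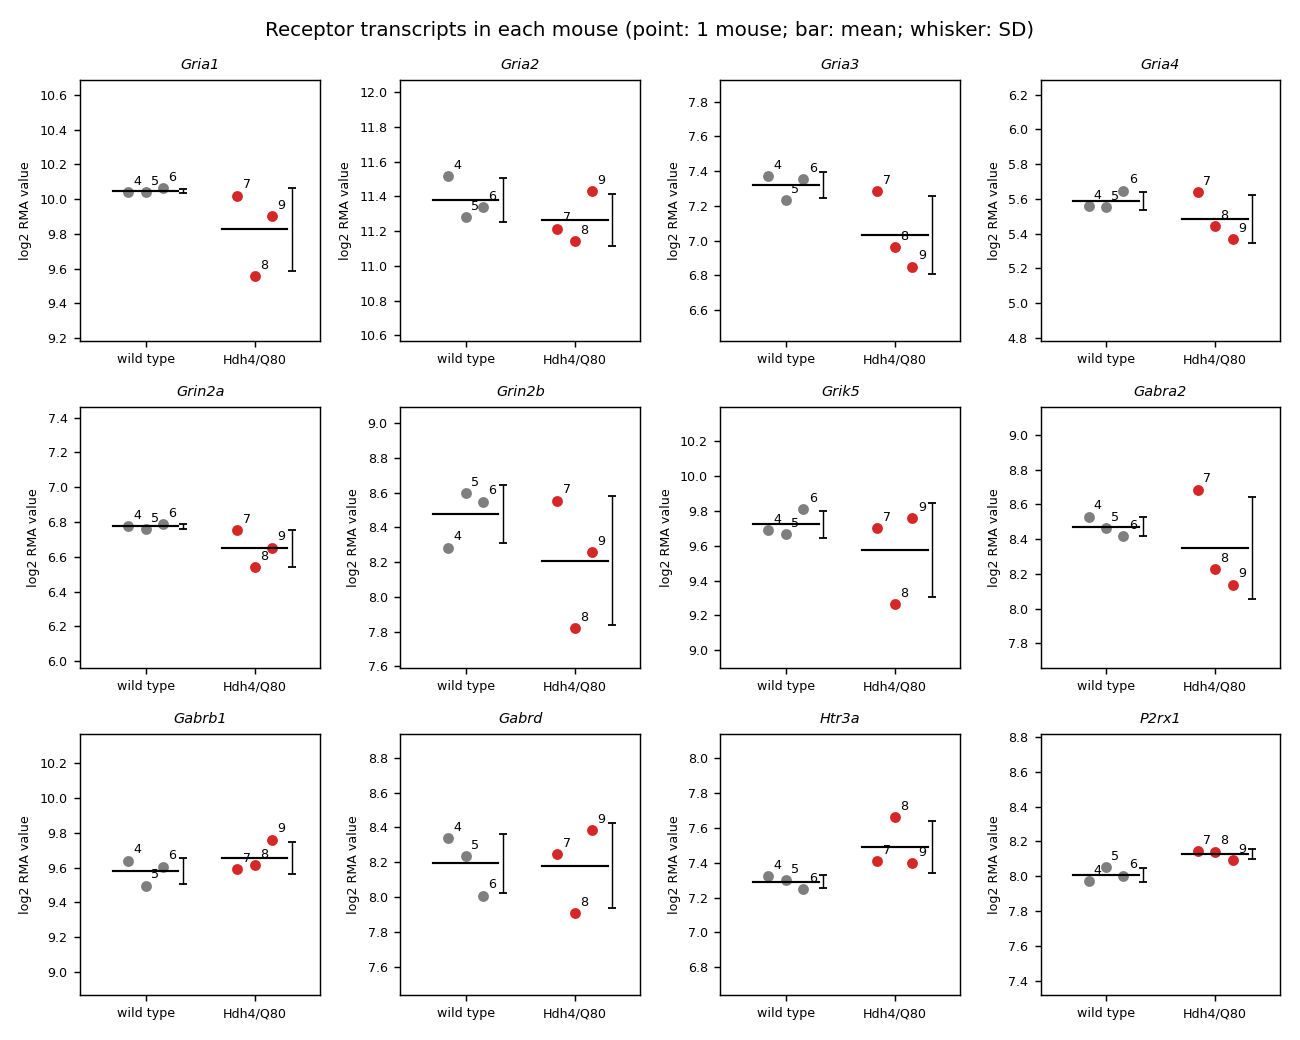
Log2 RMA value of 12 receptor genes (brightest probe set of each) in each mouse, wild type in grey and Hdh4/Q80 in red, with replicate numbers; horizontal bars are group means and whiskers SDs, and every panel spans 1.5 log2 units. Hdh4/Q80 replicate 8 is the lowest mouse for Gria1, Gria2, Grin2a, Grin2b, Grik5 and Gabrd and the highest for Htr3a, and all 3 mutants lie above the wild types for Htr3a and P2rx1.

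Among the NMDA subunits, Grin2b, which gives the receptor its slow kinetics and predominates in spiny neurons, had the largest difference and the largest spread. It read 8.28, 8.60 and 8.55 in wild type and 8.55, 7.82 and 8.26 in Hdh4/Q80 mice. Replicate 8 was far below the rest, and the other 2 mutants lay within or just under the wild-type range. The difference was -0.27 ± 0.163 (SE; interval -0.63 to 0.10; adjusted p = 0.857 in limma's test) and -0.07 without replicate 8. Grin2a, the subunit that rises at synapses as they mature, read 6.78, 6.76 and 6.79 against 6.75, 6.54 and 6.65, and all mutants lay below the wild types. Its difference was -0.13 (interval -0.29 to 0.04), and -0.07 without replicate 8. Grin2c, known for its expression in cerebellum and astrocytes, differed by -0.02 and Grin2d by -0.05. Without replicate 8 both lay above 0 (0.04 and 0.03), and Grin2c also did after cyclic loess normalization (0.0080). Grin2d falls outside the rule for named genes and was chosen after its values were seen. Replicate 8 was the lowest of the 6 mice for all 4 NMDA genes.

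The kainate subunits showed no common direction. Grik5, which encodes a subunit that works only in combination with others, read 9.69, 9.67 and 9.81 in wild type and 9.70, 9.27 and 9.76 in mutants on its brighter probe set. Replicate 8 alone was low, the difference was -0.15 with all mice and 0.01 without it. The second probe set of Grik5 has an _r suffix in its name. On it replicate 8 was the highest mouse instead (8.91, against 8.68 to 8.76 in the others), and the difference was 0.03. Grik2, a subunit that can form channels alone, differed by 0.02 on its brighter probe set and by -0.14 ± 0.0727 (SE) on its second; the latter read 6.68, 6.73 and 6.63 in wild type and 6.64, 6.52 and 6.48 in mutants. Grik1 was dim (3.68 and 3.75) and differed by 0.07. Grid1, the only delta subunit gene among the members, differed by -0.06 (interval -0.22 to 0.09). The single metabotropic member, Grm8, a presynaptic receptor that lowers transmitter release, read 6.01, 5.94 and 6.09 against 6.10, 6.15 and 5.85, a difference of 0.02 that was -0.04 without replicate 8.

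**Figure D3:**
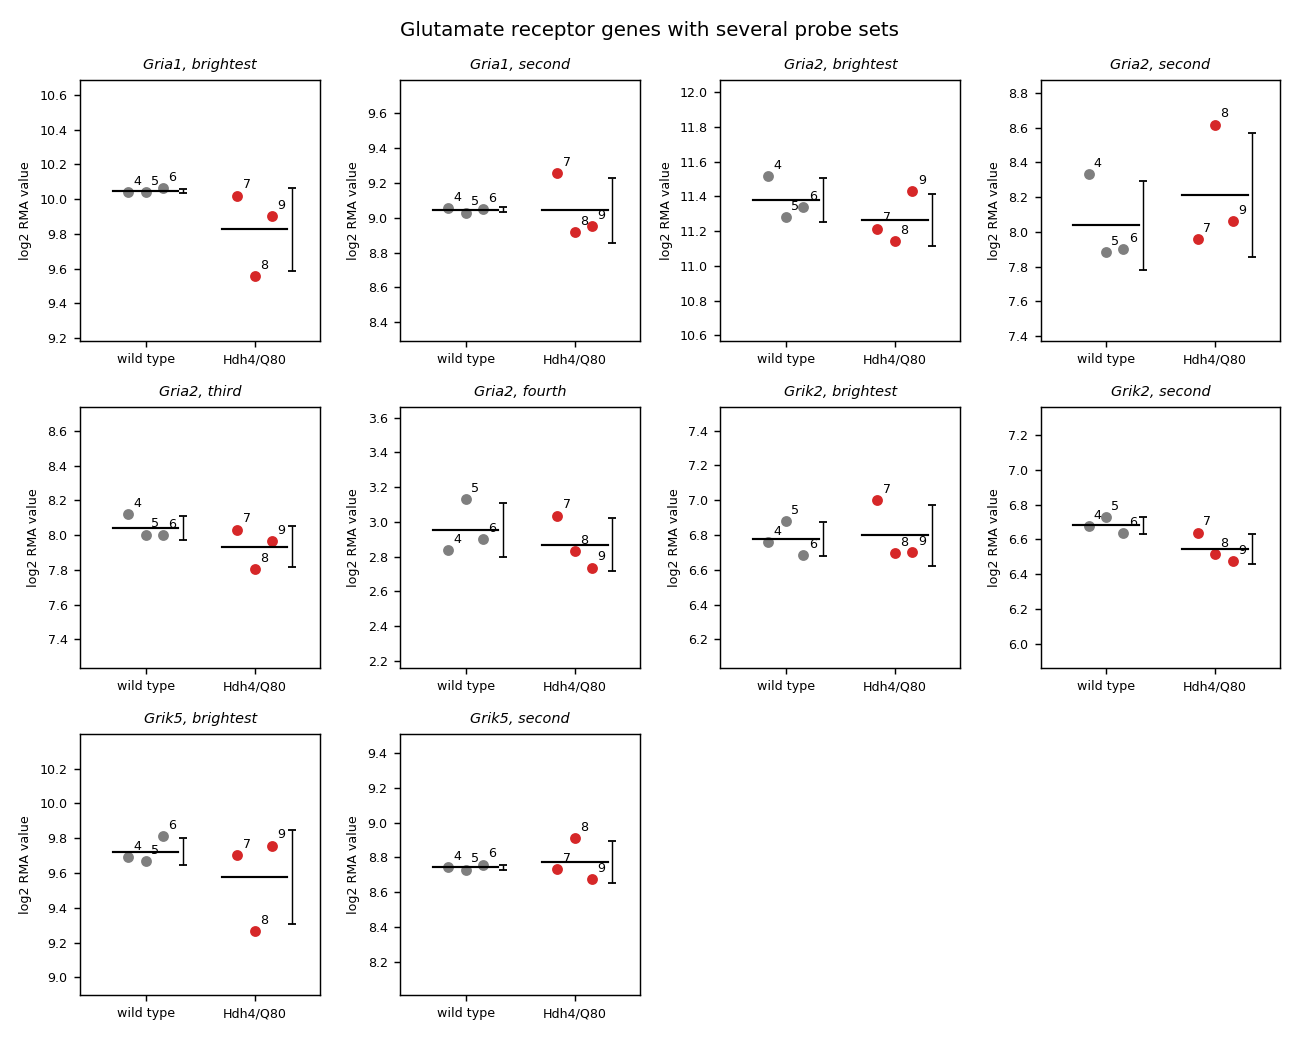
Log2 RMA value in each mouse for the 10 probe sets of Gria1, Gria2, Grik2 and Grik5, drawn as in the plot of receptor values by mouse; every panel spans 1.5 log2 units. Replicate 8 is lowest on the brightest and highest on the second probe set of Gria2, and likewise for Grik5.

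The 10 GABA-A subunit genes lay on both sides of 0, 3 below and 7 above, with differences from -0.14 to 0.13 and a median of 0.03. Gabra2, an alpha subunit of striatal and limbic GABA-A receptors, read 8.53, 8.46 and 8.42 in wild type and 8.68, 8.23 and 8.14 in Hdh4/Q80 mice. Replicate 7 was above every wild type and the other 2 mutants below every wild type. The difference was -0.12 (interval -0.40 to 0.16), and -0.29 without replicate 7 (adjusted p = 0.518 in limma's test) and -0.01 without replicate 9. Gabrb1, a beta subunit, differed by 0.07 (9.64, 9.50 and 9.61 against 9.59, 9.61 and 9.76). Gabrd, the delta subunit of extrasynaptic receptors that carry tonic inhibition, read 8.34, 8.23 and 8.01 against 8.25, 7.91 and 8.38, a difference of -0.01 with the groups fully interleaved; it was 0.12 without replicate 8 and -0.12 without replicate 9. Gabrg3, a gamma subunit, had the highest GABA-A difference, 0.13 ± 0.0734 (SE), with 6.10, 6.06 and 5.97 in wild type and 6.10, 6.19 and 6.25 in mutants. Gabra6, known as a subunit of cerebellar granule cells, read 6.51 ± 0.0656 and 6.53 ± 0.0188 (mean ± SD, n = 3), a difference of 0.02. Its dimmer probe set, at 4.16 and 4.34, differed by 0.19.

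Sequences upstream of the start were given for 27 of the 38 receptor genes by RefSeq (GRCm38.p6), and 3 are shown to set a glutamate receptor gene beside a pair of GABA-A genes of unlike upstream sequence. Each line holds the 250 bases before the start, 5′ to 3′ on the gene's strand, with every CG dinucleotide in capitals.
Gria2, chr3:80802836-80803085, minus strand: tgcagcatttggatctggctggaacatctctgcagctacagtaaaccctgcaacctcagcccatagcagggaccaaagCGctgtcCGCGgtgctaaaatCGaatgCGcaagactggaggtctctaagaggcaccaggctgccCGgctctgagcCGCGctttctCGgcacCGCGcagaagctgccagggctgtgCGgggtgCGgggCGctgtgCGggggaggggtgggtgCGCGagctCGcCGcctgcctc
Gabra2, chr5:71095850-71096099, minus strand: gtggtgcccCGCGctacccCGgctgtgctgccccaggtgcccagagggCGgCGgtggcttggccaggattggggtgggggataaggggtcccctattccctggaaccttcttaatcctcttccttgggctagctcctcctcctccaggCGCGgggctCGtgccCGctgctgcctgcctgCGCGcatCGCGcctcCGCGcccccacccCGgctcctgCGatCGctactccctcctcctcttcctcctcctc
Gabra6, chr11:42321073-42321322, minus strand: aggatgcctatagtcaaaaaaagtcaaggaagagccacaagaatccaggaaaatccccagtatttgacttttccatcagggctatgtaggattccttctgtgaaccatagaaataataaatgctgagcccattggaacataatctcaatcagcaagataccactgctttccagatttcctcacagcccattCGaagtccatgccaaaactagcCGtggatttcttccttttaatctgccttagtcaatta
Gria2 had 19 CG dinucleotides and Gabra2 had 18, numbers reached by 19.7% and 21.7% of the 32851 windows in the table. Gabra6 had 2, a number reached by 81.2% of windows. The 3 genes differed between genotypes by -0.12, -0.12 and 0.02, none past the test. No methylation or binding was measured here, so the CG counts are a description of the sequence only.

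Glycine and nicotinic subunits differed little. Glra1 differed by 0.02, and by -0.02 without replicate 8, and Glrb, the beta subunit that binds the scaffold gephyrin, by -0.07 (interval -0.24 to 0.10). Of 8 nicotinic genes 3 lay below 0 and 5 above, with a median of 0.04 and a range from -0.12 to 0.08. Chrnb2, the most widespread beta subunit of brain nicotinic receptors, had the lowest difference: it read 7.64, 7.78 and 7.61 in wild type and 7.64, 7.55 and 7.48 in mutants, -0.12 ± 0.0769 (SE). Chrna7, the subunit of calcium-permeable homomeric receptors, differed by 0.06 (8.14, 8.19 and 8.11 against 8.24, 8.24 and 8.13). Chrna6, a subunit of dopamine axons, lies outside the rule for named genes and was chosen after its values were seen. It differed by -0.03 with all mice and by -0.15 without replicate 8, where it was the only receptor gene at an unadjusted p under 0.05 in limma's test (adjusted p = 0.998).

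The muscle subunits of the nicotinic receptor, Chrna1, Chrnb1, Chrnd, Chrne and Chrng, build the receptor of the neuromuscular junction. Their differences ran from -0.0039 (Chrne) to 0.08 (Chrnb1), with a median of 0.05. The brightest Chrne probe set, with an _r suffix in its name, read 9.97 ± 0.0155 in wild type and 9.97 ± 0.0264 in mutants. The other Chrne probe sets read 7.13 and 7.52 in wild type and differed by 0.06 and 0.05, above 0 unlike the brightest. With no detection calls, a log2 value of this size does not show that a transcript was present. The 5 skeletal muscle markers, Ckm, Acta1, Myl1, Mb and Tnnt3, had a median difference of 0.03, and -0.0259 without replicate 8; for the muscle receptor subunits it was then 0.0237.

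The highest receptor differences were those of Htr3a, the serotonin-gated channel of a class of interneurons, and of receptors outside the glutamate families. Htr3a read 7.33, 7.30 and 7.25 in wild type and 7.41, 7.66 and 7.40 in Hdh4/Q80 mice. All 3 mutants lay above the wild types, replicates 7 and 9 by little and replicate 8 by most. The difference was 0.20 ± 0.0854 (SE; interval 0.01 to 0.39; unadjusted p = 0.0433, adjusted p = 0.857 in limma's test), and 0.11 without replicate 8 (unadjusted p = 0.117). P2rx1, an ATP-gated channel best known from smooth muscle and platelets, read 7.97, 8.05 and 8.00 in wild type and 8.15, 8.14 and 8.09 in mutants. The groups did not overlap, and the difference of 0.12 (interval -0.03 to 0.26) was 0.11 without replicate 8. P2rx6 differed by 0.08, and 3 of the 4 P2X genes lay above 0. Groups that did not overlap were seen for 4 receptor genes, Gria1 and Grin2a lower and P2rx1 and Htr3a higher; over all genes 5.22% were lower and 5.87% higher without overlap, 11.1% in all.

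The spread within groups was larger in the mutants for most receptor transcripts, as it was for most genes on the array. The within-group SD was larger in Hdh4/Q80 mice for 30 of 38 receptor genes (78.9%), against 70.9% of all genes, and for all 12 ionotropic glutamate receptor genes. The median SD of those 12 was 0.067 in wild type and 0.148 in mutants. Without replicate 8 the SD was larger in the mutants for 8 of the 12 and for 55.3% of receptor genes, against 50.3% of all genes. Replicate 8 was the lowest of the 6 mice for 8 of the 12 ionotropic glutamate receptor genes and for 3 of the remaining 26, against 36% of all genes, and the highest for 1 and for 10, against 26.5%. Relative to the mean of the other mice it was lower for brighter probe sets, with Pearson's r = -0.378 across the 48 receptor probe sets and -0.264 across all 12422; these share 1 array and are not independent, and the part of this in the receptor values was not tested. After quantile normalization, which gives all arrays the same distribution, 10 of 12 ionotropic glutamate genes lay below 0, with a median of -0.07. After cyclic loess normalization 9 of 12 did, with a median of -0.08. With the values as deposited the median was -0.11.

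**Figure D4:**
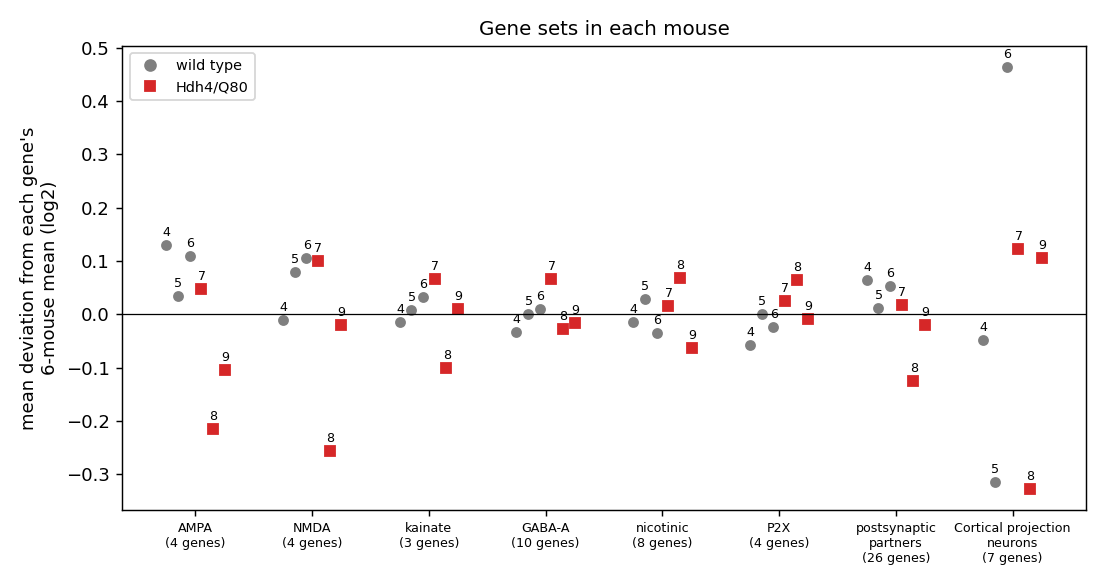
Mean deviation of gene sets in each mouse from each gene's mean over the 6 mice, in log2 units, with replicate numbers beside the points (wild type grey circles, Hdh4/Q80 red squares). Replicate 8 lies lowest for AMPA (-0.22), NMDA (-0.26), kainate and postsynaptic partner genes, replicate 7 lies with the wild types for AMPA and NMDA genes, and of the 8 sets drawn the cortical markers vary most between wild-type mice.

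Scaffolds, auxiliary subunits and signalling partners of these receptors had differences from -0.42 to 0.15, most of them below 0. Of 55 listed genes 26 were measured, 21 of them below 0 (80.8%, against 53.3% of all genes) and 5 above. The median was -0.095, and 0 passed limma's adjusted test. At an unadjusted p under 0.05 there were 2 lower, Dlg3, a scaffold of NMDA receptors, and Nsf, an ATPase that binds AMPA receptors, and 0 higher, where 2.13% of all genes were lower and 2.17% higher. Neither was below that threshold without replicate 8. Dlg3 read 8.33, 8.28 and 8.31 in wild type and 8.23, 8.03 and 8.08 in mutants, a difference of -0.19 ± 0.0745 (SE), and -0.15 without replicate 8. Nsf read 10.93, 10.97 and 11.15 against 10.97, 10.63 and 10.79, a difference of -0.22 between overlapping groups, and -0.14 without replicate 8. Cacng2, the auxiliary AMPA subunit stargazin, read 9.40, 9.20 and 9.25 against 9.18, 9.10 and 9.08, a difference of -0.16 with groups that did not overlap. Dlg4, the scaffold PSD-95, differed by -0.11, and by -0.04 without replicate 8. Gphn, the scaffold gephyrin of inhibitory synapses, differed by -0.11 with all mice and by 0.03 without replicate 8, which read 7.75 there. Homer1, which links metabotropic receptors to calcium stores, differed by -0.10, and by -0.08 without replicate 8. Without replicate 8 the median of the list was -0.0353, with 18 of 26 below 0. After quantile normalization it was -0.0599 and after cyclic loess -0.0576, with 19 of 26 below 0 each time. With array weights it was -0.0455, with 20 of 26 below 0. These genes were chosen with earlier results known. Replicate 8 was the lowest mouse for 14 of the 26 (53.8%), against 36% of all genes.

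Markers of other cells moved with the mice as follows. Cortical projection neuron markers, 7 of 12 measured, deviated by -0.05, -0.31 and 0.46 in wild-type replicates 4, 5 and 6 and by 0.12, -0.33 and 0.11 in Hdh4/Q80 replicates 7, 8 and 9. Their mean log2 level ran from 6.29 to 7.07 in wild type and from 6.28 to 6.73 in mutants. The markers did not move alike: replicate 8 was the lowest mouse for 4 of the 7 and the highest for 1. Relative to the mean of the other mice, replicate 8 lay at -1.29 for Cck and -1.02 for Tbr1. For the remaining markers this ran from -0.35 (Nptx1) to 0.17 (Neurod1). AMPA genes deviated by 0.13, 0.03 and 0.11 in the wild types and by 0.05, -0.22 and -0.10 in the mutants. Both sets were lowest in replicate 8. Wild-type replicate 5, nearly as low in cortical markers, had the lowest AMPA deviation of the wild types (0.03). Other mice did not pair in this way. Hdh4/Q80 replicate 9 had the second lowest AMPA deviation (-0.10) with cortical markers above their mean (0.11). Wild-type replicate 4 had the highest AMPA deviation (0.13) with cortical markers slightly below their mean (-0.05). All 5 measured astrocyte markers and 5 of 6 measured microglial markers were also lowest in replicate 8. Median differences were -0.14 for astrocyte and -0.24 for microglial markers with all mice, and -0.06 and -0.15 without replicate 8. The mean microglial level ran from 8.96 to 9.01 in wild type and from 8.59 to 8.87 in mutants, and 4 of the 6 microglial genes, C1qa, C1qb, C1qc and Tyrobp, were lower without overlap, against 5.22% of all genes. Of 5 measured oligodendrocyte markers 2 were also lower without overlap, Mobp by a difference of -0.31 and Mal by -0.23; the median of the 5 was -0.03, and -0.10 without replicate 8, with 5 of 5 then below 0. Median differences were 0.04 for 4 markers of septum, pallidum and thalamus, and 0.0139 without replicate 8. They were 0.83 and 0.67 for 3 choroid plexus markers, whose mean level ran from 6.94 to 8.01 in wild type and from 6.98 to 8.84 in mutants. The part of cell composition in the receptor values was not tested.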

How the data were processed

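Total RNA of each striatum was biotin-labelled and hybridised to Affymetrix arrays, per the labels' protocols. Values were used as deposited: log2 numbers that the authors obtained with RMA (affy), per the submitters' processing notes, with versions not stated. RMA equalises array distributions and so removes any global shift in RNA. No detection calls were used, and the number of arrays limits the precision.

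Leaving out 66 control probe sets of 12488, 12422 were fitted with limma 3.58.1 in R 4.3.3, using lmFit and eBayes (4 residual and 5.81 prior degrees of freedom) and Benjamini-Hochberg adjustment at 0.05. The code was tested on simulated data. Platform annotation gave 10833 probe sets 1 symbol, 396 several and 1193 none; all 48 receptor probe sets matched the RefSeq gene table with the same symbol. A gene was represented by its brightest probe set over all 6 arrays.

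Groups came from the titles, and the design text counts 3 mice per group. Members, lists and alternatives were chosen with earlier results of these data known. Named genes were the 8 of smallest p in each direction, the 2 brightest per family, those with several probe sets and a fixed panel. Alternatives covered scaling, a filter on the dimmest 40%, moderation, array weights, averaging of probe sets and omission of each mouse.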

Additional observations from a re-analysis of the deposited data

How the results depend on the processing

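No paired analysis was possible because the wild-type mice are numbered 4 to 6 and the Hdh4/Q80 mice 7 to 9, with no shared number. The counts at an adjusted p under 0.05 were 0 for all probe sets, receptor probe sets and partner genes in every alternative run that gave them. Counts over probe sets were not made where a gene's probe sets were averaged. The smallest adjusted p of a named receptor probe set over the alternatives was 0.166 in limma's test. Of 465 alternative differences of named receptor probe sets, 413 kept their sign and 52 did not, over 22 probe sets. The count of receptor genes at an unadjusted p under 0.05 ran from 0 to 4 for lower and from 0 to 1 for higher genes on leaving out 1 mouse. The 4 lower genes, without Hdh4/Q80 replicate 7, were Gabra2, Grin2b, Gria1 and Gria3. With array weights, which gave replicate 7 a weight of 6.19 and replicate 8 one of 0.228, 4 genes were higher (Gabrg1, P2rx1, Htr3a and Grik2), Gria2 was lower, and ionotropic glutamate genes split 6 below and 6 above 0. Array weights also gave a delta median of 0.0163 (Grid1) and turned the sign for Chrna1 (-0.0460), Gabra2 (0.1805), Grin2b (0.0044), Gria4 (0.0177), Grik1 (-0.0357), Grin2c (0.0273) and Gabrd (0.0979). They did so too for the second probe sets of Grik5 (-0.0099), Gria1 (0.1830) and Gria2 (-0.0013), the fourth of Gria2 (0.0553) and the brightest of Chrne (0.0132). Quantile normalization turned the second probe sets of Chrng (-0.0024) and Gria1 (0.0386) and the brightest of Chrne (0.0505). Cyclic loess turned the second of Gria1 (0.0334), the brightest of Chrne (0.0444), Grm8 (-0.0042), Grin2c (0.0080) and Gabrd (0.0078). Averaging a gene's probe sets turned Chrne (0.0352) and Grik2 (-0.0563). Without the dimmest 40% of probe sets, which removed 13 receptor genes and left Grm8 without a value, the kainate median was -0.0620. Omitting 1 mouse, the kainate median ran from -0.0771 to 0.0723 and the P2X median from 0.0240 to 0.1081. Leaving out 1 mouse at a time, the sign turned for differences of -0.0745 to 0.1144 for Chrna1, -0.0112 to 0.056 for Chrnd, -0.0142 to 0.1316 for the third Chrne probe set and -0.0067 to 0.1042 for the second Chrne probe set. Likewise the range was -0.0153 to 0.0105 for the brightest Chrne probe set, -0.0083 to 0.0247 for the second Chrng probe set, -0.0082 to 0.057 for the brightest Gabra6 probe set and -0.1151 to 0.1231 for Gabrd. It was -0.0194 to 0.0931 for Glra1, -0.1091 to 0.0607 for the second Gria1 probe set, -0.1713 to 0.0002 for the fourth Gria2 probe set and -0.0293 to 0.3206 for the second Gria2 probe set. For others it ran -0.0771 to 0.0758 for the brightest Grik2 probe set, -0.2389 to 0.007 for the brightest Grik5 probe set, -0.0386 to 0.0784 for the second Grik5 probe set and -0.0585 to 0.0378 for Grin2c. The last was -0.0398 to 0.1105 for Grm8. The causes were not tested.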
